A study of Mus musculus with 32 samples.

Results

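The accessibility of liver chromatin after dexamethasone, a synthetic glucocorticoid, was compared with that after vehicle, using 4 of the 32 samples of the series and 2 of its 5 interval lists. All sites of both lists on autosomes were taken, and a site was counted as shared where it overlapped one of the other list by 1 bp or more. DNase I hypersensitive sites (DHS) are stretches of chromatin open enough for the enzyme DNase I to cut them, and they mark promoters, enhancers and other regulatory DNA. The glucocorticoid receptor (GR) is a ligand-activated transcription factor that binds DNA once it holds a glucocorticoid such as dexamethasone. Much of its binding in liver is known to fall in chromatin that is already open, and at some sites accessibility is known to follow the hormone. C/EBPβ belongs to the basic leucine zipper factors and acts in hepatocytes, the main cells of the liver.

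Both groups were male C57BL/6 mice, 8 weeks old, whose adrenal glands had been removed, which takes away most of the animals' own glucocorticoid. The DNase-seq groups were livers of mice injected with a dexamethasone-cyclodextrin complex (1 mg/kg dexamethasone, 2 samples) and livers of mice given cyclodextrin alone (2 samples), in 300 ul, with the series' design text giving 1 h of treatment. Whole liver holds other cell types besides hepatocytes, and a site open in fewer cells cannot be told apart from one less open in each cell. The liver label was not checked against marker genes, since no annotation of the files' build was used. Each condition has 1 deposited list of DHS positions, with no replicate, count or signal column. The depth of sequencing is therefore unknown, and no difference between the lists could be tested against the spread between animals. Shares below are given with 95% Wilson intervals, which cover counting error only, and with their spread over the 19 autosomes. Neighbouring DHS and chromosomes of the same lists are not biological replicates.

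The dexamethasone list held 63473 DHS, including 3 duplicate rows that were counted once, and the vehicle list held 56794, together 120267 of the 180039 intervals of the series. Of these, 61444 and 55069 lay on autosomes and are the ones described here. Their median widths were nearly the same, 593 bp (quartiles 482 and 743 bp) after dexamethasone and 598 bp (493 and 737 bp) after vehicle. In both lists an exact width of 150 bp was the commonest, with 1102 and 732 DHS. Most of these short DHS overlapped another DHS of their own list, 734 of 1102 (66.6%) after dexamethasone and 547 of 732 (74.7%) after vehicle. The overlap between 2 DHS of one list had a median of 35 and 36 bp. Such pieces bear on counts of merged and split sites, which are therefore also given without them. Regions are named by their position in mm9 alone. Binding was read from the series' other 3 lists, made from chromatin immunoprecipitation of adrenalectomized mouse liver. These were 11666 GR peaks, in a list that names no treatment, and 25392 and 22714 C/EBPβ peaks after dexamethasone and vehicle.

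Most open chromatin was common to both conditions, and more sites were found only after dexamethasone than only after vehicle. Of the 61444 dexamethasone DHS, 14483 (23.6%, 23.2 to 23.9) shared no base with any vehicle DHS and are called dex-only. Of the 55069 vehicle DHS, 8202 (14.9%, 14.6 to 15.2) shared no base with a dexamethasone DHS and are called vehicle-only. The remaining 46961 dexamethasone and 46867 vehicle DHS were shared. When both lists were trimmed to the same length by dropping the narrowest dexamethasone DHS, the shares came closer, at 19.9% and 18.6%. Since nearly equal numbers of DHS were shared, the difference between the shares restates the difference in list length, and lists of equal length must give nearly equal shares. What set the lengths was not tested.

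Counted in bases, the dexamethasone list covered 39.98 Mb and the vehicle list 35.9 Mb of the autosomes. Both lists covered 29.3 Mb in common, which is 73.2% of the dexamethasone bases and 81.5% of the vehicle bases. The bases found after dexamethasone only amounted to 10.7 Mb. Of these, 7.04 Mb (65.7%) lay in dex-only DHS and 3.67 Mb were flanks of shared DHS beyond the vehicle interval. The bases found after vehicle only amounted to 6.64 Mb, with 3.70 Mb (55.8%) in vehicle-only DHS and 2.93 Mb in flanks. Bases in 1 list only were therefore mostly those of separate sites, and the flanks differed less between the lists than the separate sites did.

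List-only sites were narrow. The median width was 479 bp for dex-only DHS, with quartiles of 389 and 569 bp. For shared DHS of the same list it was 633 bp, with quartiles of 524 and 798 bp. Vehicle-only DHS had a median of 455.5 bp (379 and 525 bp), and shared vehicle DHS one of 627 bp (526 and 770 bp). Among dexamethasone DHS under 300 bp, 53.9% (52.2 to 55.6) were dex-only, and among those of 1500 bp and over 1.69% (1.10 to 2.60) were. The vehicle list went from 45.4% (43.4 to 47.5) to 0.542% (0.232 to 1.26) over the same widths.

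**Figure D1:**
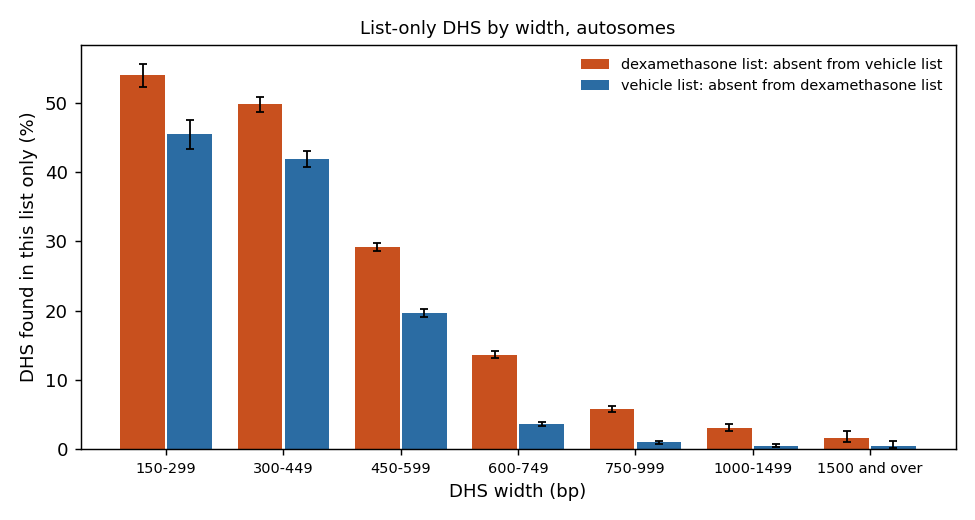
Share of DHS found in 1 list only (y axis, percent) by DHS width in bp (x axis) for the dexamethasone and vehicle lists on autosomes; error bars are 95% Wilson intervals. Shares drop with width in both lists, from 53.9% and 45.4% in the narrowest class to 1.69% and 0.542% in the widest.

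At the same width below 1500 bp, a site was more often list-only after dexamethasone. The longer dexamethasone list bears on this order too, and lists of the same length were not compared by width. From 600 up to 750 bp, 13.7% (13.1 to 14.2) of dexamethasone DHS were dex-only and 3.67% (3.38 to 3.995) of vehicle DHS were vehicle-only. The difference averaged 10.05 points over autosomes (SD 1.34, n = 19) and was positive on 19 of 19. It was positive on 19 of 19 autosomes also in the width classes that start at 450, 750 and 1000 bp. In the class from 150 bp it was positive on 17 of 19, and in the class from 300 bp on 18 of 19. The mean difference was 9.06, 7.95 and 9.78 points in the 3 narrower classes (SD 6.84, 4.21 and 1.84). It was smaller in the broad ones, at 4.81 points from 750 bp and 2.60 points from 1000 bp. From 1500 bp upward it was positive on 10 of 19, with only 20 dex-only and 5 vehicle-only DHS.

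Over all widths, GR lay less often in dex-only DHS, in 1761 of 14483 (12.2%, 11.6 to 12.7), than in shared dexamethasone DHS, in 8733 of 46961 (18.6%, 18.2 to 19.0). Broad dex-only sites held GR more often than that. Of the 2722 dex-only DHS of 600 bp or more, 979 (36.0%, 34.2 to 37.8) overlapped a GR peak. Of the 635 vehicle-only DHS of that width 0 did, with an upper Wilson bound of 0.601%. Among all dexamethasone DHS of that width, 8766 of 29794 (29.4%, 28.9 to 29.9) did. The contrast with vehicle-only sites is largely built in, since most GR peaks of this series lie in dexamethasone DHS, which a vehicle-only DHS cannot overlap. Broad list-only sites were nevertheless commoner after dexamethasone where GR-bound sites were left out of both lists. Among DHS of 600 bp or more without a GR peak, 1743 of 21028 (8.29%, 7.92 to 8.67) were dex-only and 635 of 20668 (3.07%, 2.85 to 3.32) were vehicle-only. The full lists were used here as well, so the longer dexamethasone list bears on this order.

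Compared at equal width within the dexamethasone list, GR lay more often in dex-only than in shared DHS in every class below 1500 bp. Under 300 bp the shares were 0.806% (15 of 1860) and 0.126%, with dex-only higher on 9 of 19 autosomes. From 300 up to 450 bp they were 3.19% and 1.25% (18 of 19), and from 450 up to 600 bp 10.9% and 6.28% (19 of 19). From 600 up to 750 bp the shares were 30.9% (28.9 to 32.9) of dex-only and 18.3% (17.6 to 19.0) of shared DHS, with dex-only higher on 19 of 19 autosomes. From 750 up to 1000 bp they were 52.3% (48.0 to 56.6) and 34.0% (32.97 to 34.99), again on 19 of 19. From 1000 up to 1500 bp GR lay in 76 of 152 dex-only DHS and in 41.0% (39.6 to 42.4) of shared DHS, with dex-only higher on 11 of 19 autosomes. In the widest class the order turned, with GR in 5 of 20 dex-only DHS and in 57.4% (54.5 to 60.2) of shared ones. C/EBPβ peaks of the dexamethasone list were less frequent in dex-only DHS at each of these widths, for example in 17.8% of dex-only and 40.2% of shared DHS from 600 up to 750 bp. Over all widths, 79.6% (78.9 to 80.2) of dex-only DHS and 88.0% (87.3 to 88.7) of vehicle-only DHS held no peak of the GR or either C/EBPβ list, against 54.8% (54.4 to 55.3) of shared dexamethasone DHS.

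Within GR-bound sites, the receptor sat nearer the middle of dex-only DHS. The GR centre lay a median of 36.2 bp from the DHS centre in dex-only sites (quartiles 17 and 68.5 bp, 1792 pairs) and 67 bp in shared sites (26.5 and 172 bp, 9379 pairs). Shared GR-bound sites were wider, with medians of 837 against 621 bp. As a share of the half-width the medians were 12.2% and 16.9%. A single GR peak was the rule in dex-only sites, where 30 of 1761 GR-bound DHS (1.70%) held 2 or more, against 619 of 8733 (7.09%) of shared ones. The offsets above pool all pairs. Sites with 2 or more peaks, which cannot all be central, were not left out.

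The widest dex-only DHS stood far apart from the typical width. At chr12:105579325-105587672 a dex-only DHS was 8347 bp wide and held 3 GR peaks, and it was the widest interval of the list. The next was chr9:106132196-106135739, 3543 bp wide with 2 GR peaks, followed by chr8:96696191-96698918, 2727 bp wide with 0. The 3 widest vehicle-only DHS were chr18:65408059-65411760 (3701 bp), chr8:121969070-121971557 (2487 bp) and chr5:125861872-125864100 (2228 bp), and none of the 3 held a GR peak.

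The same sites were rarely cut up differently in the 2 lists. Overlapping intervals formed 45483 groups, and in 43105 of them (94.8%) 1 dexamethasone DHS met 1 vehicle DHS. In 1013 groups 1 dexamethasone DHS spanned 2 or more vehicle DHS, called merges here, and in 1128 groups 1 vehicle DHS spanned 2 or more dexamethasone DHS, called splits. A further 237 groups joined several of each. Nearly all were pairs, with 939 of the merges uniting 2 vehicle DHS and 1072 of the splits yielding 2 dexamethasone DHS. Merges took in at most 6 vehicle DHS and splits at most 4 dexamethasone DHS.

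Merges and splits did not differ in number in a way that held across settings. Short pieces made up much of both, since 472 of the 2111 vehicle DHS in merges (22.4%) and 620 of the 2314 dexamethasone DHS in splits (26.8%) were exactly 150 bp wide. With 150-bp DHS and those of the next commonest exact width left out of both lists, there were 596 merges and 544 splits, so the order turned. Lists of the same length gave 1052 and 464.

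Merged and split sites differed in their GR content. A GR peak lay in 369 of the 1013 merges (36.4%, 33.5 to 39.4), in 200 of the 1128 splits (17.7%, 15.6 to 20.1) and in 8052 of the 43105 one-to-one groups (18.7%, 18.3 to 19.1). Merged dexamethasone DHS had a median width of 1179 bp and split vehicle DHS one of 977.5 bp, and wider sites hold GR more often. From 1000 up to 1500 bp, GR lay in 41.0% of all shared dexamethasone DHS and 30.9% of all shared vehicle DHS. From 1500 bp upward the shares were 57.4% and 42.4%. Merge widths are those of dexamethasone DHS and split widths those of vehicle DHS. Whether the contrast in GR goes beyond width and list was not tested. Groups without short pieces were closer in width, at medians of 1516 bp for 533 merges and 1356 bp for 498 splits. Among those with a true gap between their parts, a GR centre lay in 260 of 519 merges (50.1%, 45.8 to 54.4). In splits of that kind it lay in 98 of 482 (20.3%, 17.0 to 24.2). C/EBPβ peaks of the dexamethasone list also lay in more merges, 53.6% (50.52 to 56.7), than splits, 47.6% (44.7 to 50.52), with intervals that meet but do not overlap. For vehicle C/EBPβ peaks the shares were 45.2% (42.2 to 48.3) and 44.6% (41.7 to 47.5), with intervals that overlap.

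Within merges, GR centres were sparser in the bridged gaps than beside them. In those 519 merges the largest gap between vehicle DHS had a median of 77 bp (quartiles 33 and 181 bp). GR centres fell in a gap 17 times and elsewhere in the merged DHS for the rest of the 365, which is 0.211 per kb of gap and 0.447 per kb of the remainder. The gaps of splits cannot be set beside these, since they lie outside every dexamethasone DHS, where few GR peaks lie. In the 482 splits 0 of 121 GR centres fell in a gap, which is a count near the one built in.

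The merges with most pieces were of a few kb. Both chr19:5836768-5843471 and chr16:3231407-3237753 spanned 6 vehicle DHS (6703 and 6346 bp, 0 GR peaks), and chr11:3041466-3048932 spanned 5 (7466 bp, 1 GR peak). The splits with most pieces were chr17:71200144-71203722 and chr9:106340228-106341726 with 4 dexamethasone DHS each, and chr14:46635176-46638146 with 3, and all 3 held 0 GR peaks. The splits into 4 both included pieces of a fixed exact width.

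Sites matched one to one kept their width overall. The log2 ratio of the width after dexamethasone to that after vehicle had a median of 0.01 over the 43105 pairs (quartiles -0.16 and 0.19). Past a 1.5-fold difference in width, 2517 (5.84%) were wider after dexamethasone and 1817 (4.22%) were narrower. The edges differed by a median of 48 bp and the centres by 32.5 bp, and the interval was identical in 23 pairs.

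Pairs bound by GR were far more often wider than narrower. Of the 7917 pairs with a GR peak in both intervals, 788 (9.95%, 9.31 to 10.6) were at least 1.5 times wider after dexamethasone and 51 (0.644%, 0.490 to 0.846) at least 1.5 times narrower. The 35053 pairs without a GR peak in either interval were nearly even, with 1608 wider (4.59%, 4.37 to 4.81) and 1766 narrower (5.04%, 4.81 to 5.27). Pairs with GR had median ratios above 0 on 19 of 19 autosomes (0.09 to 0.14 on the log2 scale), and pairs without GR had medians below 0 on 18 and of 0 on the remaining one. Pairs with GR were also wider in the vehicle list (717 against 609 bp), so they were compared at equal mean width of both lists. The difference in median log2 ratio was positive in all 10 deciles, from 0.65 in the narrowest (73 pairs with GR) to 0.08 in the widest (1661 pairs with GR).

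**Figure D2:**
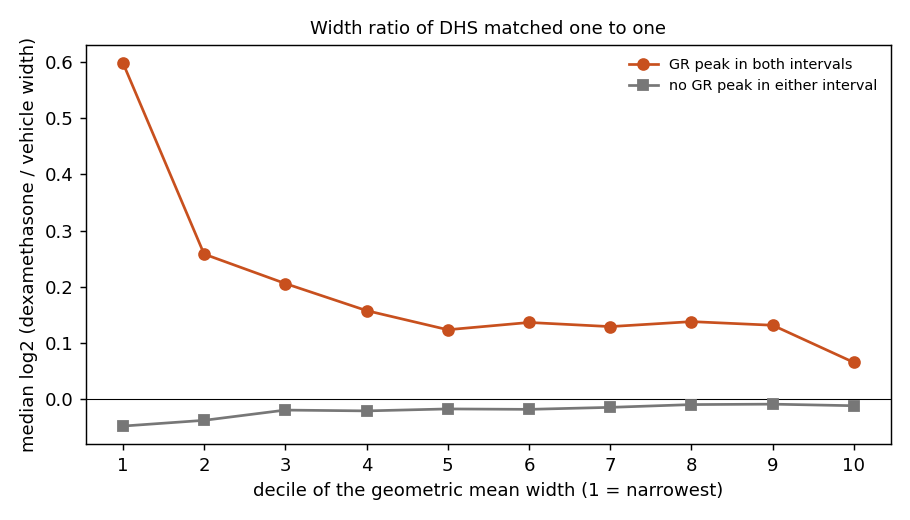
Median log2 of the dexamethasone width divided by the vehicle width (y axis) for DHS matched one to one, by decile of the geometric mean of both widths (x axis, 1 the narrowest). Points with GR in both intervals lie above 0 in all 10 deciles, falling from 0.60 to 0.07, and points without GR lie just below 0.

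The greater width at GR sites came from both edges. Among pairs with GR in both intervals, 46.9% had both edges further out after dexamethasone and 14.3% had both further in, against 25.3% and 29.6% of pairs without GR. The position of a single GR peak lying within both intervals was set against the mean of the 2 interval centres. For peaks under 25 bp from that point, the nearer edge lay a median of 28 bp (quartiles -16 and 77 bp, 2133 DHS) and the other edge 24 bp (-21 and 72 bp) further out after dexamethasone. From 75 up to 150 bp off centre the medians were 34 and 33 bp (1338 DHS). The nearer edge moved further in 48.3% (45.6 to 51.0) of these, so neither side was preferred beyond counting error.

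The edges parted where the peak lay far off centre. From 150 up to 300 bp off centre the nearer edge lay 32 bp and the other 16.5 bp further out, and the nearer one moved further in 468 of 826 DHS (56.7%, lower bound 53.3). At 300 bp or more the medians were 32.5 and 12 bp, with 60.5% (55.0 to 65.8) of 314 DHS. GR-free pairs with a C/EBPβ peak common to both lists, measured in the same way, had edges that differed less. Their edges lay at medians of -6 and -2 bp from 150 up to 300 bp off centre, and the nearer one moved further in 49.7% (45.7 to 53.6) of 604 DHS. At 300 bp or more the medians were -6.5 and -1.5 bp, and the share was 49.5% (42.8 to 56.3) of 206 DHS. The choice of reference point matters for size: measured from the centre of the vehicle interval, which does not treat the lists alike, the median difference between the edges at 150 bp and beyond was 52 bp in place of 19.5 bp. Where the C/EBPβ peak was in the vehicle list alone, 25 bp or more off centre and without GR, the nearer and other edges lay at -24 and -26 bp (617 DHS). Where it was in the dexamethasone list alone they lay at 6 and 8 bp (1286 DHS), so by these medians the intervals were wider in the list of the condition that held the peak.

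The most extreme width ratios occurred with and without GR. The largest was at chr13:120278214-120280232, where 2018 bp after dexamethasone met 253 bp after vehicle (7.98-fold, 0 GR peaks). At chr1:129795495-129796625 the widths were 1130 and 150 bp (7.53-fold, 1 GR peak), and at chr12:105632905-105637567 they were 4662 and 628 bp (7.42-fold, 2 GR peaks). The latter starts within 50 kb of the end of the widest dex-only DHS, on the same chromosome. The 3 smallest ratios were from 1353, 1539 and 1101 bp after vehicle to under 300 bp after dexamethasone, at chr5:65541171-65541422, chr12:100774750-100775043 and chr2:60421486-60421737, and none of the 3 held a GR peak.

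List-only sites stood slightly more apart from other open sites than shared ones. The gap from a dex-only DHS to the nearest other DHS of its list had a median of 3456 bp, with quartiles of 801.5 and 13054 bp. For shared DHS the median was 2799 bp, with quartiles of 651 and 10290 bp, and it was the smaller one on 18 of 19 autosomes. For vehicle-only DHS it was 4572 bp (1028 and 16818 bp) against 3298 bp (765 and 11802 bp), larger on 19 of 19. GR-bound sites had closer neighbours in both classes. Dex-only DHS with GR had a median gap of 2254 bp and lay within 10 kb of another DHS in 82.0% of cases, against 3724 bp and 68.6% for dex-only DHS without GR. Shared DHS had medians of 1711 bp with GR and 3220.5 bp without, so the order of the classes was the same.

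Sites of a class also tended to follow one another. After a dex-only DHS the next DHS of the list was dex-only in 29.4% (28.7 to 30.1) of cases, and after a shared DHS in 21.8% (21.4 to 22.1), with the former higher on 19 of 19 autosomes. In the vehicle list, a vehicle-only DHS followed a vehicle-only one in 18.8% (18.0 to 19.7) and a shared one in 14.2% (13.9 to 14.5), again on 19 of 19. With both lists at the same length, the shares after a site of the same class were 24.8% and 23.2%. In the dexamethasone list the contrast was larger at short range, as the plot of the next DHS by gap shows. At gaps under 500 bp the shares were 36.1% (33.7 to 38.5) and 17.2% (16.2 to 18.2) in the dexamethasone list, and beyond 50 kb they were 30.3% (28.6 to 32.1) and 26.3% (25.3 to 27.3).

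**Figure D3:**
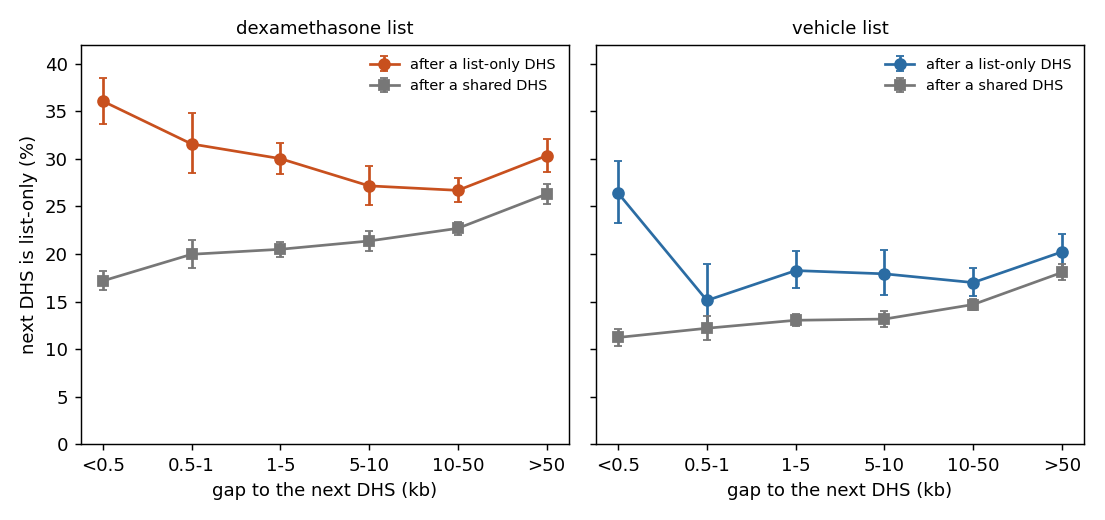
Share of cases in which the next DHS of the same list was list-only (y axis, percent), by the gap to it (x axis, kb), after a list-only and after a shared DHS; error bars are 95% Wilson intervals. In the dexamethasone list the curves start at 36.1% and 17.2% and draw together to 30.3% and 26.3%, and the vehicle curves start at 26.4% and 11.2%. The shortest gap class includes DHS that overlap in their own list.

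The share of dex-only neighbours was nearly the same with and without GR. Neighbours of a dex-only DHS were themselves dex-only in 28.9% of cases where it held GR and in 29.5% where it held none. Of the dex-only DHS, 7349 (50.7%) stood alone between shared sites, 3968 (27.4%) came in runs of 2, 2572 (17.8%) in runs of 3 or 4, and 594 (4.10%) in runs of 5 or more. GR lay in 12.3% (11.6 to 13.1) of the single ones and in 9.93% (7.78 to 12.6) of those in the longest runs, with intervals that overlap. Dexamethasone C/EBPβ peaks lay in 12.9% of the single ones and 5.05% of those in runs of 5 or more. Vehicle-only DHS came in shorter runs, with 5439 (66.3%) alone and 51 (0.622%) in runs of 5 or more. Run length depends on the list-only share, which was lower in the vehicle list, and at equal list length the shares of same-class neighbours given above were close.

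The longest runs of dex-only DHS covered stretches of 100 kb and more. The longest, 12 DHS at chr15:5194645-5820412, spanned 626 kb with no shared DHS between them, and 0 of the 12 held GR or C/EBPβ. A run of 11 at chr7:17641260-19322557 spanned 1681 kb with 1 GR-bound DHS, and a run of 9 at chr3:3003827-3127330 spanned 124 kb with 0. The 10 vehicle-only runs of 5 or more DHS had a median span of 54.8 kb, against 94.8 kb for the 102 such dex-only runs. The vehicle-only runs named by the same rule were compact, and those of 5 DHS were among several of that length. They were 6 DHS in 13.5 kb at chr8:122447481-122460957, 5 in 3.87 kb at chr6:129136511-129140380 and 5 in 14.3 kb at chr2:127188127-127202429, each with 0 GR peaks and 0 vehicle C/EBPβ peaks.

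Dex-only sites without GR lay nearer to GR peaks elsewhere than vehicle-only sites did. A GR centre lay within 2 kb of 1075 of the 12722 GR-free dex-only DHS (8.45%, 7.98 to 8.95), of 2552 of the 38228 GR-free shared dexamethasone DHS (6.68%, 6.43 to 6.93) and of 320 of the 8189 GR-free vehicle-only DHS (3.91%, 3.51 to 4.35). The difference between dex-only and vehicle-only averaged 4.50 points over autosomes (SD 1.91, n = 19) and was positive on 19 of 19. Against shared sites the dex-only share was higher by 1.76 points (SD 1.49) and on 17 of 19. The contrast was smaller at longer range. Within 10 kb the dex-only and shared shares were 24.6% (23.9 to 25.4) and 23.4% (22.96 to 23.8), with dex-only higher on 15 of 19 autosomes, and the median distance to a GR centre was larger for dex-only DHS, at 51121 bp against 45955 bp. Vehicle-only DHS had 17.6% (16.8 to 18.4) within 10 kb and a median of 62380 bp.

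Since GR peaks are denser where open sites are dense, sites were also compared at equal numbers of shared DHS within 50 kb. With 6 or more of them, a GR centre lay within 2 kb of 17.2% (16.0 to 18.4) of dex-only, 11.8% (11.2 to 12.3) of shared and 8.58% (7.57 to 9.71) of vehicle-only DHS. With 1 or 2 the shares were 3.40% (2.83 to 4.10), 2.74% (2.42 to 3.11) and 0.883% (0.559 to 1.39). With none nearby the dex-only and shared shares were 0.750% and 0.785%, with intervals that overlap. Most GR peaks lie in dexamethasone DHS, so a vehicle-only DHS is near one only where a dexamethasone DHS is near it. How far that alone sets the vehicle-only share was not tested.

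**Figure D4:**
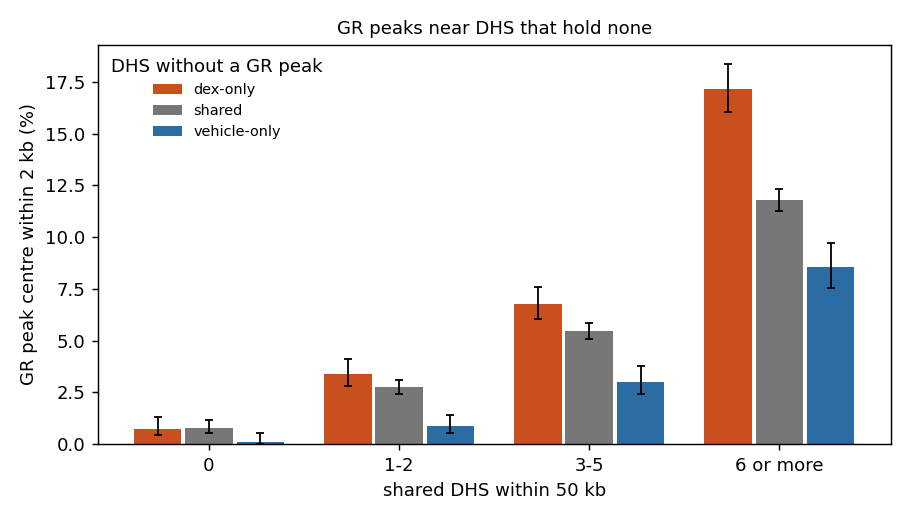
Share of GR-free DHS with a GR peak centre within 2 kb (y axis, percent), by the number of shared DHS within 50 kb (x axis), for dex-only, shared and vehicle-only DHS; error bars are 95% Wilson intervals. Dex-only bars are highest and vehicle-only bars lowest with 1 or more shared DHS nearby, reaching 17.2%, 11.8% and 8.58% at 6 or more.

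Both lists spread over the autosomes alike. Dexamethasone DHS numbered 21.1 per Mb of covered span on chromosome 14 and 37.0 on chromosome 19, the lowest and the highest, and vehicle DHS 18.8 and 32.7 on the same chromosomes. The ratio of dexamethasone to vehicle DHS was 1.12 ± 0.0174 (SD over 19 autosomes), from 1.09 on chromosome 11 to 1.14 on chromosome 3. The dex-only share ran from 21.4% on chromosome 11 to 25.3% on chromosome 18 (mean 23.7%, SD 1.07 points, n = 19). The vehicle-only share ran from 13.6% on chromosome 19 to 16.6% on chromosome 2 (mean 14.9%, SD 1.03 points). The lowest dex-only share of any autosome was thus above the highest vehicle-only share. The dexamethasone list was the longer one on every autosome, so the order of the shares within each largely restates list length. Autosomes with more DHS per Mb had lower dex-only shares (Pearson r = -0.62, Spearman rho = -0.70 over 19 autosomes that share both libraries, given as a description).

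**Figure D5:**
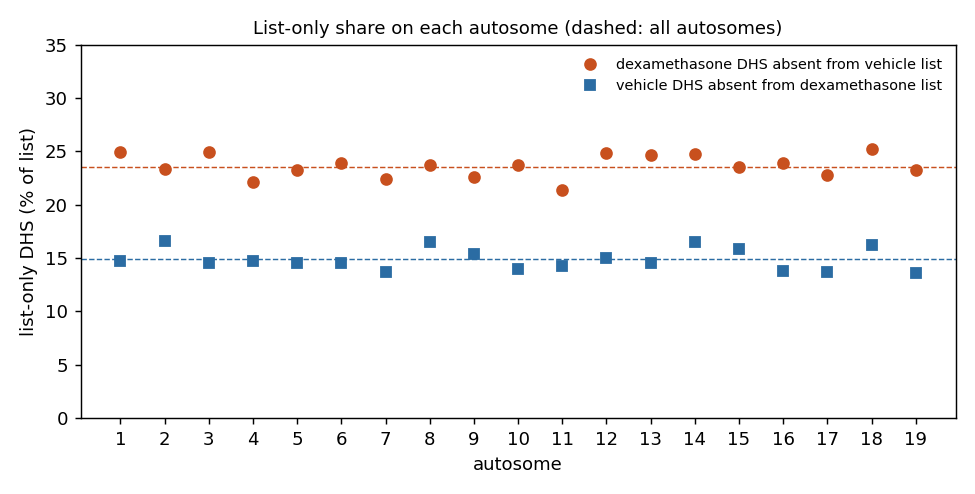
List-only DHS as a percentage of each list (y axis) on each autosome (x axis), with dashed lines for all autosomes together. Dex-only shares lie between 21.4% and 25.3% and vehicle-only shares between 13.6% and 16.6%, so the 2 sets do not overlap. The dexamethasone list is the longer one on every autosome.

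Within chromosomes, open sites were strongly clustered. In the 2420 windows of 1 Mb, dexamethasone DHS numbered 25.4 on average and at most 98, with a variance 15.9 times the mean, and 83 windows held none in either list. The tenth of windows with most dexamethasone DHS (242) held 25.5% of these DHS, 23.1% of the dex-only and 21.3% of the vehicle-only ones, and 31.6% of GR peaks. Dexamethasone DHS outnumbered vehicle DHS in 1591 windows, the reverse held in 429, and 317 had equal numbers above 0. The larger number after dexamethasone was thus found in most windows that held any DHS.

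The dex-only share varied between windows. Given each window's number of DHS, the squared deviations of dex-only counts averaged 1.57 times the binomial variance, and those of vehicle-only counts 1.40 times. Among the 927 windows with 30 or more dexamethasone DHS, the median dex-only share was 21.8%, and the 5th and 95th percentiles were 11.1% and 37.5%. The shares of dex-only and vehicle-only DHS in these windows had almost no relation (Pearson r = 0.07, Spearman rho = 0.06, given as a description).

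Sparse regions had the highest shares of list-only sites in both lists. In windows with under 10 DHS of both lists together, 40.8% (37.7 to 43.9) of dexamethasone DHS were dex-only and 25.8% (22.9 to 29.0) of vehicle DHS were vehicle-only. In windows with 100 or more the shares were 20.7% (20.1 to 21.3) and 13.0% (12.5 to 13.5), and they were lower at each step between. Part of this gradient is built in. The grouping count takes a shared site from each list but a list-only site from its own list alone. Windows with low counts are thereby richer in list-only sites. How much of the gradient this sets was not tested. Windows without any GR peak had 32.0% (30.6 to 33.5) dex-only and 22.9% (21.5 to 24.3) vehicle-only DHS. Windows with 11 or more GR peaks had 22.2% (21.6 to 22.8) and 12.4% (11.9 to 12.9). GR number and DHS number go together, and their parts in this were not separated. The dex-only share was thus not raised in GR-rich windows, and neither was the vehicle-only share. In counts, windows with 11 or more GR peaks held 4531 dex-only and 2251 vehicle-only DHS, and windows without GR held 1306 and 815. Whether dex-only sites are in excess over vehicle-only ones in GR-rich regions was not tested.

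The windows with the highest dex-only shares had close to the minimum of 30 dexamethasone DHS. They were chromosome 7 from 118000000 (16 of 30 DHS, 53.3%, 36.1 to 69.8), chromosome 19 from 11000000 (20 of 38, 52.6%), chromosome 13 from 45000000 (19 of 38), chromosome 16 from 57000000 (15 of 30) and chromosome 10 from 13000000 (15 of 32, 46.9%). They held 6, 2, 6, 1 and 6 GR peaks in that order. The lowest share was on chromosome 5 from 137000000, where 1 of 45 dexamethasone DHS was dex-only (2.22%, 0.393 to 11.6) and 2 of 46 were vehicle-only, so the lists were nearly the same there. On chromosome 4 from 154000000, 3 of 55 were dex-only (5.45%) and 13 of 63 vehicle-only (20.6%), the opposite balance to the genome, with 15 GR peaks. Chromosome 2 from 127000000 (2 of 37 dex-only, 11 of 44 vehicle-only), chromosome 4 from 139000000 (2 of 36 and 8 of 41) and chromosome 9 from 54000000 (2 of 36 and 4 of 39) completed the lowest 5. The chromosome 2 window also contains the third of the vehicle-only runs named above. These windows are the extremes of 927, chosen by these shares.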

How the data were processed

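DNase-seq was done on livers of 2 dexamethasone and 2 vehicle samples. The authors deposited interval positions only (unit: other, in bp), 1 list per condition, and per the submitters' processing notes CASAVA 1.8 and build mm9 were used. For the aligner, caller, threshold and any pooling of samples, the entry is: not given in the sources used here. The GR list names no treatment. No column of per-sample values was left unused.

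Widths are end minus start, and coordinates appear as deposited, without stated base. DHS on autosomes were called shared at an overlap of 1 bp or more, and connected groups of overlapping intervals gave merges and splits. Windows of 1 Mb started at position 0. No test between conditions was run, since each has 1 list. The members, lists and rules were chosen with earlier results of these data known. Regions were named by a fixed rule (extremes of width, width ratio, pieces, run length and dex-only share among windows with 30 or more DHS). Planned gene lists and cell markers were left out for want of an mm9 annotation here. The functions were tested on simulated lists and with bedtools 2.31.1. Python 3.11.15, numpy 2.4.6 and pandas 2.3.3 were used.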

Additional observations from a re-analysis of the deposited data

How the results depend on the processing

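No paired analysis was possible because each condition has 1 list, and for the same reason no replicate could be left out. Of 67 alternative values of 17 results, 28 stayed within the counting interval or the SD over autosomes (for merges and splits, within 1.5 times) and 39 moved beyond it. The dex-only share exceeded the vehicle-only share in 8 of 8 settings, an order that the longer dexamethasone list brings with it in most of them. They were 24.3% and 15.6% with 50% of the shorter interval covered, 25.01% and 16.1% with the centre inside the other interval, 20.6% and 12.9% with gaps of up to 500 bp, 19.9% and 18.6% with lists of the same length, and 26.5% and 18.1% with all intervals at 300 bp. Without the 2 commonest exact widths the dex-only share was 23.2%, and without intervals under 300 bp it was 22.8%. Merges and splits numbered 12 and 6 by centres, 1542 and 2180 with gaps of up to 500 bp, 596 and 544 without the commonest exact widths, and 550 and 466 or 449 and 317 with intervals of a list under 100 or 500 bp apart joined first. Lists of the same length gave 464 splits. These settings remove, add or join pieces by construction.

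Lists of the same length gave a median log2 width ratio of 0.0164, a median gap of 3314 bp at shared DHS, and shares of list-only neighbours after a list-only DHS of 24.8% (dexamethasone) and 23.2% (vehicle). The dexamethasone share was 30.7% for neighbours within 10 kb and 28.2% without the commonest exact widths. Without those widths the gap at shared DHS was 3057 bp, GR lay in 12.8% of dex-only and 19.0% of shared DHS, and 7.96% of GR-free dex-only DHS had GR within 2 kb, an alternative chosen after seeing the data. To the nearest shared DHS the gaps were 6225 bp (dex-only) and 3972 bp (shared). Windows of 500 kb and 2 Mb gave variance to mean ratios of 10.9 and 22.5, and windows of 500 kb a median dex-only share of 20.5%. Measured from the vehicle centre, also chosen after seeing the data, the edge difference at GR was 52 bp. Read depth is unknown, so how many list-only DHS lie near the calling threshold cannot be told.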
